A study of Mus musculus with 6 samples.

Results

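The genes of the fibroblast growth factor (FGF) to ERK pathway were followed after loss of Dicer (Dcr) in mouse embryonic stem (ES) cells. The group was a list of 37 genes, from FGF ligands and receptors to the early response genes and feedback inhibitors, and a gene was read from every probe set whose only gene symbol in the platform annotation was its own. Of the 37 genes, 34 had a value, of 18193 named genes in all. A mean log2 level of at least 4 over the 6 arrays was reached by 30 of them, of 8782 genes tested. The level of Fgf15, Fgfr3, Fgfr4 and Nf1 was under that minimum, and Frs2, Hras and Mapk3 were not analysed here, since no probe set carried that single symbol in the annotation used.

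Both groups came from one Dicerflox/flox ES cell line, kept on gelatin with serum and the cytokine LIF, and total RNA was taken 5 days after transfection. Cells transfected with GFP alone kept intact Dicer genes (Dcr WT, 3 arrays), and cells transfected with GFP and Cre recombinase lost them (Dcr KO, 3 arrays). The Dcr KO cells were a polyclonal population, so cells that kept a Dicer allele could remain among them, and Cre was given in no cells that kept Dicer, so what Cre does by itself and what the deletion does cannot be told apart. In such populations fewer cells expressing a gene and less RNA of it per cell cannot be told apart either.

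FGF ligands bind receptor tyrosine kinases, which recruit adaptors and an exchange factor that loads RAS with GTP, and RAS then starts the RAF, MEK and ERK kinase cascade. ERK induces early genes and ETS factors, and also its own inhibitors, the Sprouty and Spred proteins and the dual specificity phosphatases (DUSPs), so that the pathway is held back by its targets. In mouse ES cells, autocrine Fgf4 acting through ERK is known to prepare cells to leave the naive state, against which LIF works.

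Dicer cuts microRNA precursors, and its loss removes the mature microRNAs, among which those of the mir-295 cluster are abundant in ES cells. Their mature sequences are shown because the study predicted the targets of this seed family, and 4 of the 37 genes, Fgf4, Sos1, Rasa1 and Spry4, are on its list of candidate targets. That list took predicted targets that were at least 1.2-fold up both after Dicer loss and after deletion of the mir-295 cluster. It was so chosen in part on these arrays, and a higher level of these 4 genes in Dcr KO cells is not independent evidence. By the gene mean used here, 3 of the 4 were at least 1.2-fold up. Spry4 was not, at 1.08-fold, though its brightest probe set alone gave 1.25-fold. The sequences are from RefSeq (GRCm38.p6), 5′ to 3′, with the seed (bases 2 to 8) in capitals, and they lie on the plus strand at chr7:3218674-3218697, chr7:3218968-3218989, chr7:3219529-3219550, chr7:3220691-3220712 and chr7:3220815-3220837, in the order printed.
mmu-miR-290a-3p: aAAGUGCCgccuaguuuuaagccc
mmu-miR-291a-3p: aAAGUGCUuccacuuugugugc
mmu-miR-291b-3p: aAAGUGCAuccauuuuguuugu
mmu-miR-294-3p: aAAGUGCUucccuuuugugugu
mmu-miR-295-3p: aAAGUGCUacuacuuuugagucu
All sequences printed hold AAGUGC, the shorter seed by which the study defined the family, within the capitals. Over bases 2 to 8, miR-291a-3p, miR-294-3p and miR-295-3p are alike, and miR-290a-3p and miR-291b-3p differ from them in the last base. miR-292-3p of the same cluster is named only. Sites for these seeds in the FGF-ERK transcripts were not searched here.

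Dicer1, the targeted gene, was lower on every Dcr KO array. Its log2 level was 7.78, 7.89 and 7.16 on the Dcr WT arrays and 6.33, 6.59 and 5.92 on the Dcr KO arrays, a log2 difference of -1.33 (SE 0.23, limma adjusted p = 0.0134). All differences are Dcr KO minus Dcr WT, the opposite sign to the study's own definition. All 10 pluripotency markers listed were above the minimum and 0 were called. An unadjusted p under 0.05 was seen for 3 that were higher and 2 that were lower. Counts at that unadjusted cut-off, here and below, have no share over all genes beside them and are descriptive only. The primitive endoderm markers Gata4, Gata6, Sox7, Sox17, Pdgfra and Foxa2 were under the minimum. The others of that list were above it: Dab2 (mean 4.87 in Dcr WT and 4.81 in Dcr KO cells), Lama1 (7.19 and 7.71) and Sparc (8.55 and 8.82). Of the other marker lists, 1 of 6 epiblast and primitive streak markers tested was called (Pou3f1, lower), with a list median of -0.49, and their summed linear level was 4137 to 5092 on Dcr WT arrays and 3386 to 3891 on Dcr KO arrays. The summed levels of other lists were higher in Dcr KO cells: 330 to 382 against 529 to 610 for neural, 510 to 646 against 686 to 749 for primitive endoderm and 14225 to 17931 against 18028 to 19571 for trophectoderm markers, Dcr WT first. Pluripotency markers summed to 47642 to 52594 and 52680 to 54356, and fibroblast markers, which overlapped, to 75.0 to 92.2 and 79.2 to 94.5. Such sums follow the brightest genes of a list and do not show a shift of the whole list. Tubb3 (mean 8.28 in Dcr WT and 9.01 in Dcr KO cells) held most of the neural sum. Of the neural markers 5 of 7 were under the minimum, and Nes differed by -0.07. The brightest genes were Krt18 and Krt8 for trophectoderm, Sparc for primitive endoderm and Dnmt3b for epiblast and primitive streak markers. Lama1 among primitive endoderm markers and Tubb3 among neural markers were called higher, and of the trophectoderm and fibroblast markers tested 0 of 4 and 0 of 2 were called, with 2 and 0 at an unadjusted p under 0.05. Tubb3 was called in 6 of the 6 fits that left out 1 array, Lama1 and Pou3f1 in 1 each, and these last also lost the call with the replicate number as a block. Some marker levels move with the groups compared below, and their part in those results was not tested.

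Some arrays stood apart from their groups. Dcr WT replicate 2 lay over 1 log2 unit below every other array in 376 of 18789 expressed probe sets, against 0 to 56 on the other arrays, and 4 probe sets of the FGF-ERK genes were among the 376, 1 each of Fgfr2, Araf, Rasa1 and Etv5. The same held for 1 Fgf4 probe set under the minimum level. Dcr KO replicate 3 lay over 1 unit below all others in 56 probe sets and above them in 74. It was the highest or lowest Dcr KO array for 25 of the 30 FGF-ERK genes tested, and for 80.6% of all genes tested.

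After Dicer loss, Spry1 and Nras were the FGF-ERK genes called at an adjusted p under 0.05, and both were lower. The Nras call was lost in each fit that left out 1 array. Some uncalled genes differed more than Nras, among them Fgf17 (-0.72) and Dusp5 (0.70). Spry1, a Sprouty inhibitor of receptor tyrosine kinase signalling, dropped to 41.8% of its Dcr WT signal, and Nras, one of the RAS GTPases, to 79.0%. These were 2 of 30 genes tested (6.67%), where limma called 13.3% of all genes at an adjusted p under 0.05. By direction, 0 of 30 were called higher, against 6.91% of all genes, and 2 of 30 lower, against 6.42%. At an unadjusted p under 0.05, 8 were higher and 4 lower. The share of all genes past that unadjusted cut-off was not counted, so these 2 counts cannot be set against a background. The called share among the FGF-ERK genes was thus no greater than among all genes.

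The median log2 difference of the 30 genes was 0.11, against -0.02 over all genes tested, and 20 differences were above 0. Without Dcr WT replicate 2 and Dcr KO replicate 3 the median was 0.05 (-0.03 over all genes), and 17 differences were above 0 (4018 of 8782 over all genes). In that setting 6 genes were at least 1.2-fold up and 3 down (17.1% and 19.9% of all genes). Without Dcr KO replicate 3 alone 11 were up and 3 down (16.7% and 18.5% of all genes). Without Dcr WT replicate 2 alone 8 were up and 5 down (18.8% and 21.6% of all genes). With all 6 arrays, 12 genes were at least 1.2-fold up (19.2% of all genes tested), and 5 at least 1.2-fold down (21.0% of all genes tested). On 7 genes every Dcr KO array was above every Dcr WT array (17.7% of all genes), namely Sos1, Araf, Rasa1, Dusp1, Dusp5, Dusp14 and Jun. On 5 genes every Dcr KO array was below every Dcr WT array (21.2% of all genes), namely Fgf17, Nras, Map2k1, Spry1 and Fos.

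**Figure D1:**
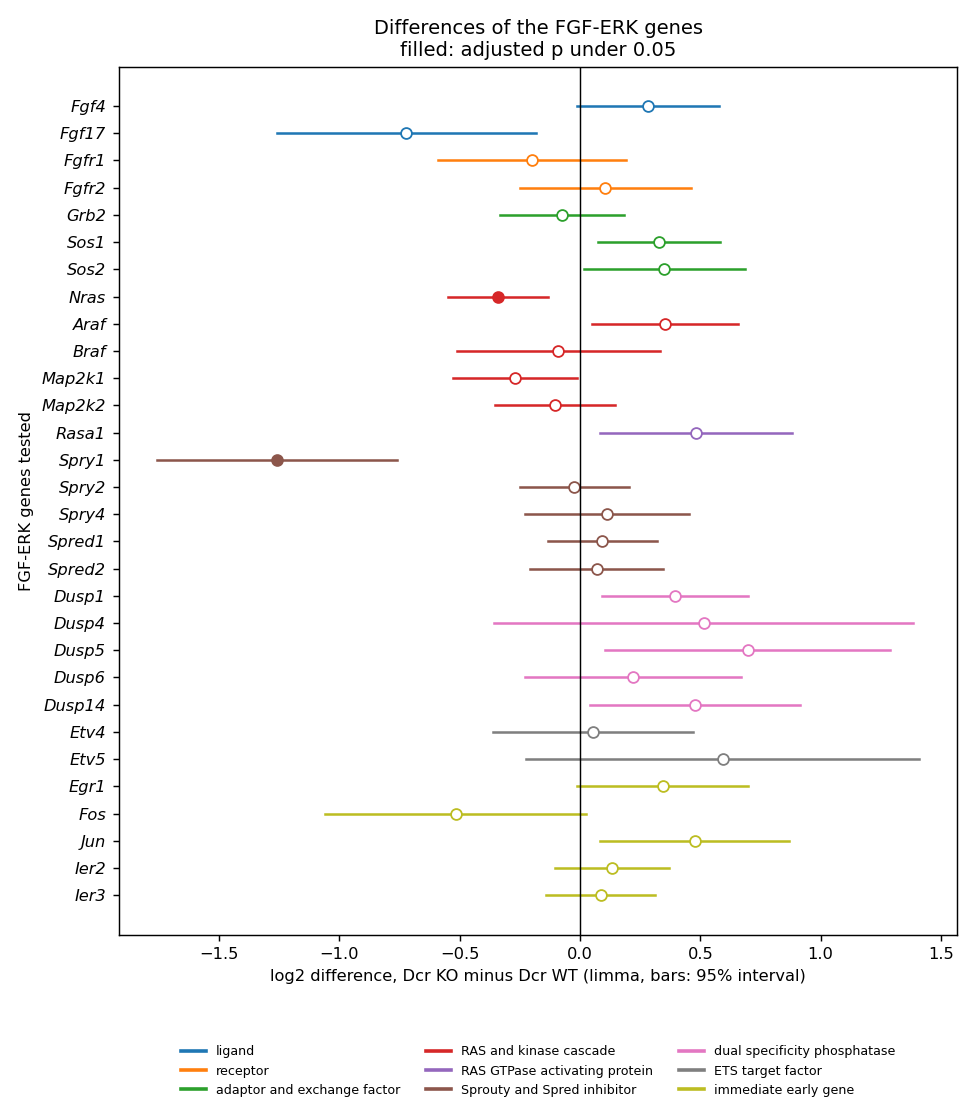
Log2 difference (Dcr KO minus Dcr WT, x axis) of each FGF-ERK gene tested (y axis, coloured by role) with its 95% interval from limma, 3 arrays a group; filled points have an adjusted p under 0.05. Spry1 at -1.26 and Nras at -0.34 are filled, and the 5 phosphatases lie between 0.22 and 0.70 with open points.

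Among the ligands, Fgf4 is the FGF that ES cells make for themselves. Its log2 level was 6.04, 5.97 and 6.31 on the Dcr WT arrays and 6.39, 6.53 and 6.25 on the Dcr KO arrays. That level averages probe sets with Dcr WT means of 9.48 and 9.08 and others, under the minimum, of 2.67 and 3.19. Their differences were 0.24, 0.31, -0.05 and 0.63 in that order. Dcr KO replicate 3 lay below the highest Dcr WT array, and the difference of 0.28 (SE 0.13) was not called (limma adjusted p = 0.172). Fgf17, of the Fgf8 subfamily, gave 7.76, 7.71 and 7.65 on the Dcr WT arrays and 7.28, 7.28 and 6.38 on the Dcr KO arrays. The groups did not overlap and Dcr KO replicate 3 was lowest, yet the difference of -0.72 (SE 0.23) missed the threshold (limma adjusted p = 0.0777). It was -0.42 without Dcr KO replicate 3, and both of its probe sets were negative, at -0.70 and -0.74. Fgf15, also of the secreted ligands, averaged 3.74 in Dcr WT and 4.19 in Dcr KO cells and was not tested.

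Of the receptors, Fgfr1 and Fgfr2 were tested and 0 of 2 were called, with 0 at an unadjusted p under 0.05. Fgfr1, the main FGF receptor of ES cells, read 7.08, 7.24 and 6.62 on the Dcr WT arrays and 6.93, 6.73 and 6.67 on the Dcr KO arrays. Its lowest value was on Dcr WT replicate 3, the groups overlapped, and the difference of -0.20 had a 95% interval of -0.59 to 0.19 (-0.02 without Dcr WT replicate 2 and Dcr KO replicate 3). Fgfr2 differed by 0.11 (interval -0.25 to 0.46), and by -0.04 without Dcr WT replicate 2. Fgfr3 and Fgfr4 had mean levels of 1.68 to 2.47 in either group, under the minimum.

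The adaptor Grb2 links receptors to the exchange factors Sos1 and Sos2, which load RAS with GTP. Sos1, on the study's candidate list, had levels of 4.85, 4.60 and 4.81 on the Dcr WT arrays and 4.99, 5.15 and 5.11 on the Dcr KO arrays. All 3 Dcr KO arrays were higher, by 0.33 on average (SE 0.11), with a limma adjusted p of 0.0842. Its brightest probe set alone gave 0.50 and was called when a gene was read by that probe set (limma adjusted p = 0.048). Sos2 differed by 0.35 (SE 0.14, limma adjusted p = 0.142), and its levels were 8.18, 8.40 and 8.26 on the Dcr WT arrays against 8.88, 8.64 and 8.37 on the Dcr KO arrays. Dcr KO replicate 3 fell inside the Dcr WT range, and without it and Dcr WT replicate 2 the Sos2 difference was 0.54 (limma adjusted p = 0.0504). The Grb2 probe sets pointed opposite ways, at -0.44 and 0.29, so its mean difference of -0.08 describes neither.

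In the RAS and kinase tier, Nras was called and lower. Its levels were 9.52, 9.58 and 9.51 on the Dcr WT arrays and 9.22, 9.17 and 9.21 on the Dcr KO arrays. Averaged over its probe sets, the 3 arrays of each group lay within a narrow range (SD 0.04 and 0.03), well apart from the other group. The difference was -0.34 (SE 0.09, 95% interval -0.55 to -0.13, limma adjusted p = 0.0456), an effect near the threshold. Its 3 probe sets were all negative, at -0.31, -0.45 and -0.26, with 0 of 3 called alone. In that order their SD was 0.13, 0.20 and 0.18 on the Dcr WT arrays and 0.13, 0.09 and 0.02 on the Dcr KO arrays. Over Dcr WT replicates 1 to 3 the second rose (9.03, 9.18 and 9.43) and the third fell (10.13, 9.98 and 9.77), which averaging cancels. The call of the gene was lost without any 1 of the 6 arrays (limma adjusted p = 0.0841 to 0.159), while its difference stayed between -0.35 and -0.32. It was also lost without a filter on low levels (0.0531), with the brightest probe set (-0.26, limma adjusted p = 0.171), with the replicate number as a block (0.109) and without both arrays that stood apart (0.108).

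The RAF and MEK kinases downstream were not called. Araf gave 5.25, 4.98 and 5.41 on the Dcr WT arrays and 5.56, 5.49 and 5.67 on the Dcr KO arrays, a difference of 0.35 (limma adjusted p = 0.109). It was 0.24 without Dcr WT replicate 2, the lowest array, and 0.19 without that array and Dcr KO replicate 3. Map2k1 (MEK1), which phosphorylates ERK, gave 10.59, 10.43 and 10.55 on the Dcr WT arrays and 10.33, 10.34 and 10.09 on the Dcr KO arrays, a difference of -0.27 (limma adjusted p = 0.140). Both genes separated the groups, in opposite directions. Braf differed by -0.09 over 9 probe sets (interval -0.51 to 0.33), by 0.11 without Dcr WT replicate 1 and by -0.26 without Dcr WT replicate 2. Map2k2 (MEK2) differed by -0.10 (interval -0.35 to 0.15). Of 16 genes with several tested probe sets, Braf, Grb2, Map2k2 and Spred2 were the 4 with probe sets on both sides of 0.

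RAS GTPase activating proteins return RAS to its GDP form. Rasa1, on the study's candidate list, was the 1 of them tested, with levels of 8.78, 8.19 and 8.57 on the Dcr WT arrays and 8.84, 8.93 and 9.22 on the Dcr KO arrays. The groups were separate but close, and the difference of 0.48 (SE 0.17) had a limma adjusted p of 0.0996. One of its 3 probe sets read 5.32 on Dcr WT replicate 2 and 6.72 or more on the other arrays. The difference was 0.32 without Dcr WT replicate 2 and 0.21 without that array and Dcr KO replicate 3. The other, Nf1, averaged 2.51 and 2.59 and was not tested.

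**Figure D2:**
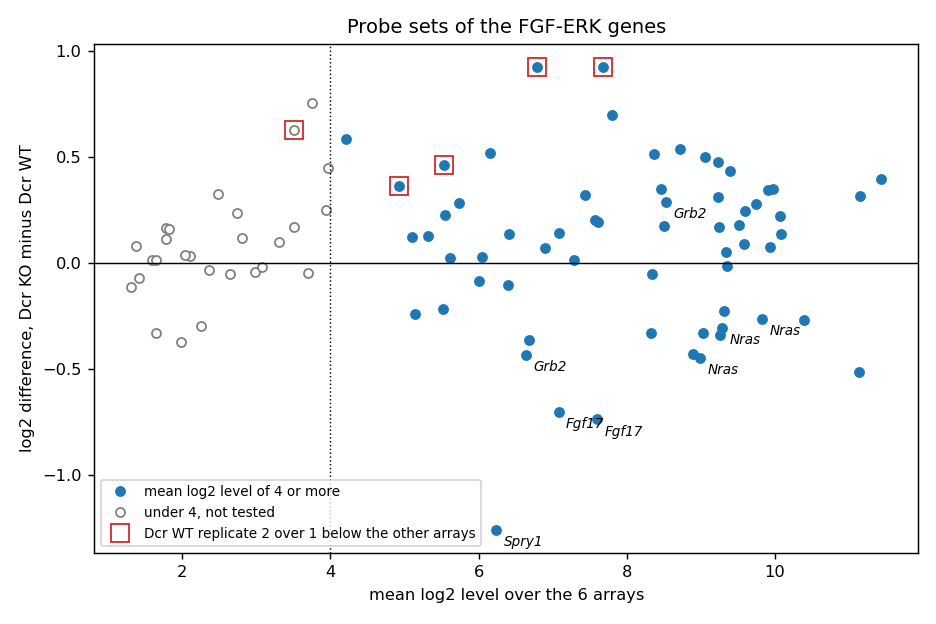
Log2 difference (Dcr KO minus Dcr WT, y axis) against mean log2 level (x axis) for the 90 probe sets of the FGF-ERK genes, of which 63 reached the minimum of 4 (filled). Red squares mark the 5 probe sets (4 at or above the minimum) on which Dcr WT replicate 2 lay over 1 unit below every other array, all with a positive difference; the Spry1 probe set at -1.26 is the lowest point.

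The largest change of the group was in Spry1. Its levels were 7.19, 6.46 and 6.96 on the Dcr WT arrays and 5.74, 5.82 and 5.27 on the Dcr KO arrays. Every Dcr KO array lay below every Dcr WT array, with the lowest Dcr WT value on replicate 2 and the lowest Dcr KO value on replicate 3, the arrays that stood apart. The mean fell from 6.87 ± 0.37 (SD, n = 3) to 5.61 ± 0.30 (SD, n = 3), a log2 difference of -1.26 (SE 0.22, 95% interval -1.76 to -0.76, limma adjusted p = 0.0127). Without both of those arrays the difference was -1.30 (limma adjusted p = 0.00608). The call was lost without Dcr WT replicate 3 (-1.22, limma adjusted p = 0.0562), where 439 of all genes were called in place of 1171. Spry1 was read by 1 probe set, so no second probe set bears on it.

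The other Sprouty and Spred genes encode inhibitors of the same step, between the receptor and RAF, and 0 of 4 were called, with 0 at an unadjusted p under 0.05. Spry2 read 5.78, 5.91 and 5.93 on the Dcr WT arrays and 5.79, 5.92 and 5.84 on the Dcr KO arrays. The groups covered the same range, and the 95% interval of the difference was -0.25 to 0.20. Spry4, on the study's candidate list, read 4.67, 4.55 and 4.50 on the Dcr WT arrays and 4.56, 4.50 and 5.00 on the Dcr KO arrays. Its difference of 0.11 (interval -0.23 to 0.45) turned to -0.04 without Dcr KO replicate 3, the only Dcr KO array above the Dcr WT range. Spred1 and Spred2 differed by 0.09 (interval -0.13 to 0.32) and 0.07 (interval -0.21 to 0.35). None of these 4 intervals reached the upper end of the Spry1 interval, -0.76. Each of the 4 genes averages in probe sets under the minimum level, which can draw its difference toward 0. The brightest probe sets alone gave -0.01 for Spry2, 0.32 for Spry4, 0.07 for Spred1 and 0.28 for Spred2. The difference between Spry1 and the other genes was not tested itself.

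**Figure D3:**
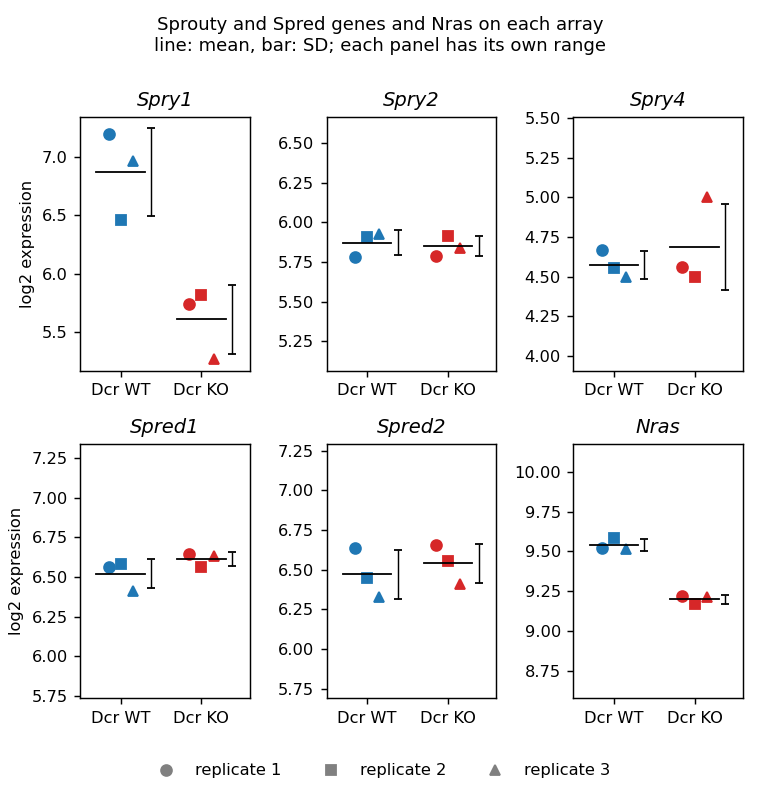
Log2 expression (y axis) on each array of the Sprouty and Spred genes and Nras; symbols give the replicate, lines the mean and bars the SD of 3 arrays. Spry1 lies at 6.46 to 7.19 on the Dcr WT arrays and 5.27 to 5.82 on the Dcr KO arrays, while the other Sprouty and Spred genes overlap between groups.

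The DUSPs remove phosphate from ERK and related kinases, and several are induced by ERK activity. All 5 had a higher mean in Dcr KO cells, by 0.22 to 0.70, but 0 of 5 were called. An unadjusted p under 0.05 was seen for 3 of them (0 with a lower mean), a count with no share over all genes beside it. Dusp5, a nuclear phosphatase of ERK, gave 7.52, 7.66 and 7.16 on the Dcr WT arrays and 7.68, 8.04 and 8.71 on the Dcr KO arrays. Its lowest Dcr KO array was only just above the highest Dcr WT array, and the difference was 0.70 (SE 0.26, limma adjusted p = 0.108). Dusp1, which acts on JNK and p38 as well as ERK, gave 11.35, 11.21 and 11.14 on the Dcr WT arrays and 11.49, 11.52 and 11.87 on the Dcr KO arrays. The groups were separate, with a difference of 0.39 (SE 0.13, limma adjusted p = 0.0843), and it was called with an intensity trend in the limma fit (adjusted p = 0.0494).

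Dusp14 gave 9.03, 8.82 and 9.14 on the Dcr WT arrays and 9.29, 9.23 and 9.90 on the Dcr KO arrays (0.48, SE 0.19, limma adjusted p = 0.129). Dusp6, a cytoplasmic phosphatase selective for ERK, gave 10.07, 9.90 and 9.90 on the Dcr WT arrays and from 9.89 to 10.64 on the Dcr KO arrays. Dusp4, a nuclear phosphatase, ranged from 7.52 to 8.57 on the Dcr WT arrays and from 8.19 to 9.44 on the Dcr KO arrays. Both overlapped between groups, with differences of 0.22 (limma adjusted p = 0.463) and 0.51 (limma adjusted p = 0.377). The highest of the 6 arrays was Dcr KO replicate 3 for each of the 5 DUSPs. Without that array the differences were 0.27 for Dusp1, 0.11 for Dusp4, 0.41 for Dusp5, -0.01 for Dusp6 and 0.26 for Dusp14. Without Dcr WT replicate 2 as well they were 0.26, 0.335, 0.52, -0.04 and 0.175 in the same order. Dcr KO replicate 3 also had the lowest Dicer1 level, and its part in these values beyond leaving it out was not tested. Of the other DUSPs tested, from the wider lists, Dusp9 differed by -0.50 (limma adjusted p = 0.124), Dusp16 by 0.25 (0.119) and Dusp3 by 0.03 (0.938), and Dusp22 was called lower (-0.38).

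The ETS factors Etv4 and Etv5 are transcription factors whose genes respond to FGF signalling. Etv5 gave 9.59, 8.12 and 8.93 on the Dcr WT arrays and 9.25, 9.27 and 9.90 on the Dcr KO arrays, with a difference of 0.59 (SE 0.35, limma adjusted p = 0.285). The low value was on Dcr WT replicate 2 and the high one on Dcr KO replicate 3, and without both arrays the difference was -0.005. Etv4 was near the minimum level, with a difference of 0.05 (interval -0.36 to 0.47) that turned to -0.22 with its brightest probe set. It gave 3.96, 4.07 and 3.91 on the Dcr WT arrays and 3.77, 3.88 and 4.46 on the Dcr KO arrays. The positive sign rested on Dcr KO replicate 3, since the other Dcr KO arrays lay below every Dcr WT array. Etv4 was tested in only 4 of the 6 fits that left out 1 array.

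Of the 5 early response genes 0 were called, and 1, Jun, had an unadjusted p under 0.05. Jun, a subunit of AP-1, gave 7.66, 7.59 and 7.37 on the Dcr WT arrays and 7.85, 7.81 and 8.38 on the Dcr KO arrays, a difference of 0.48 (SE 0.17, limma adjusted p = 0.0996). Fos, its AP-1 partner, gave 11.38, 11.56 and 11.25 on the Dcr WT arrays and 11.18, 11.16 and 10.30 on the Dcr KO arrays, a difference of -0.52 (SE 0.23, limma adjusted p = 0.173). Each separated the groups, Jun with Dcr KO above and Fos with Dcr KO below, and Dcr KO replicate 3 was the extreme array of both. Without it the differences were 0.29 and -0.23, and without Dcr WT replicate 2 as well they were 0.32 and -0.145.

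Egr1, a zinc finger factor induced within minutes of ERK activation, gave 9.66, 10.02 and 9.52 on the Dcr WT arrays and 10.22, 10.11 and 9.90 on the Dcr KO arrays. The Dcr WT replicate 2 value fell inside the Dcr KO range, and the difference was 0.34 (SE 0.15, limma adjusted p = 0.168). Without Dcr WT replicate 2 and Dcr KO replicate 3 it was 0.575 and was called (limma adjusted p = 0.0344). Ier2 and Ier3 differed by 0.13 and 0.09, and their groups overlapped.

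**Figure D4:**
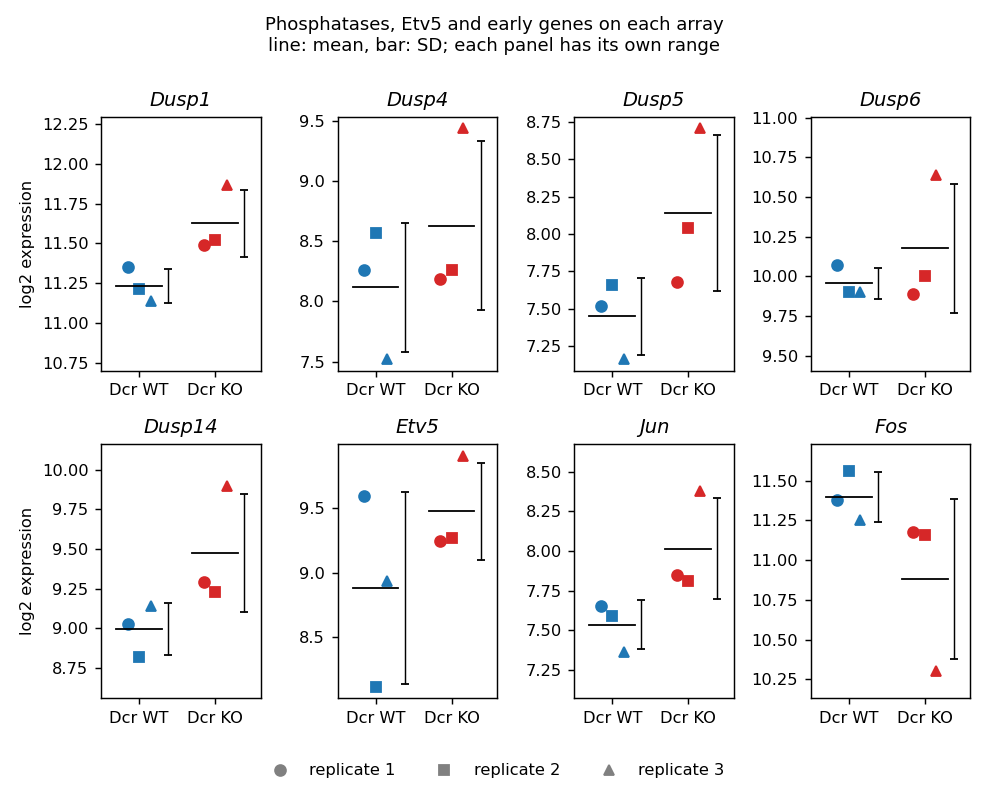
Log2 expression (y axis) on each array of the 5 phosphatases, Etv5, Jun and Fos; symbols give the replicate, lines the mean and bars the SD of 3 arrays. Dcr KO replicate 3 (red triangle) is the highest array for the phosphatases, Etv5 and Jun, from 8.38 for Jun to 11.87 for Dusp1, and the lowest for Fos at 10.30.

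The promoters of the genes whose Dcr KO arrays all lay higher were searched for motifs of factors that respond to signalling, from 250 bases before the start site up to it, on both strands. The first pattern was like a CArG box of serum response factor. It had 10 letters that begin with CC, end with GG and hold TAT from the fourth, the rest being any base. The others were like a cyclic AMP response element (TGACNTCA, N any base) and an ETS site (CCGGAAGT). In that order the patterns were found in 1.38%, 7.49% and 2.88% of 32851 RefSeq promoters and in 1, 3 and 2 of the 28 FGF-ERK promoters given. All 7 of those genes had a promoter, and Dusp5, Dusp1 and Jun held a match. These stretches upstream of the start site are shown from RefSeq (GRCm38.p6) with the matches in capitals, at chr19:53529051-53529094 (plus strand), chr17:26508596-26508627 (minus strand) and chr4:95052248-95052279 (minus strand).
Dusp5: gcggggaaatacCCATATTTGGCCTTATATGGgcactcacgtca
Dusp1: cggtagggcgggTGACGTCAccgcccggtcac
Jun: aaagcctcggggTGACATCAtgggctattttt
Dusp5 held 2 adjoining matches to the CArG-like pattern, from -82 to -63 relative to the start site. Dusp1 and Jun held 1 match to TGACNTCA each, starting at -143 and -45. The Jun match has A at N, where the Dusp1 match has G. Braf, which was not separate between groups, held 2 matches to TGACNTCA. A match describes letters in these windows and was not tested as a binding site.

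Across the settings tried, 5 of the 30 genes were called in at least 1 of them: Spry1, Nras, Sos1, Dusp1 and Egr1. Spry1 was called in 13 of the 14 alternatives, Nras in 4, and Sos1, Dusp1 and Egr1 in 1 each.

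**Figure D5:**
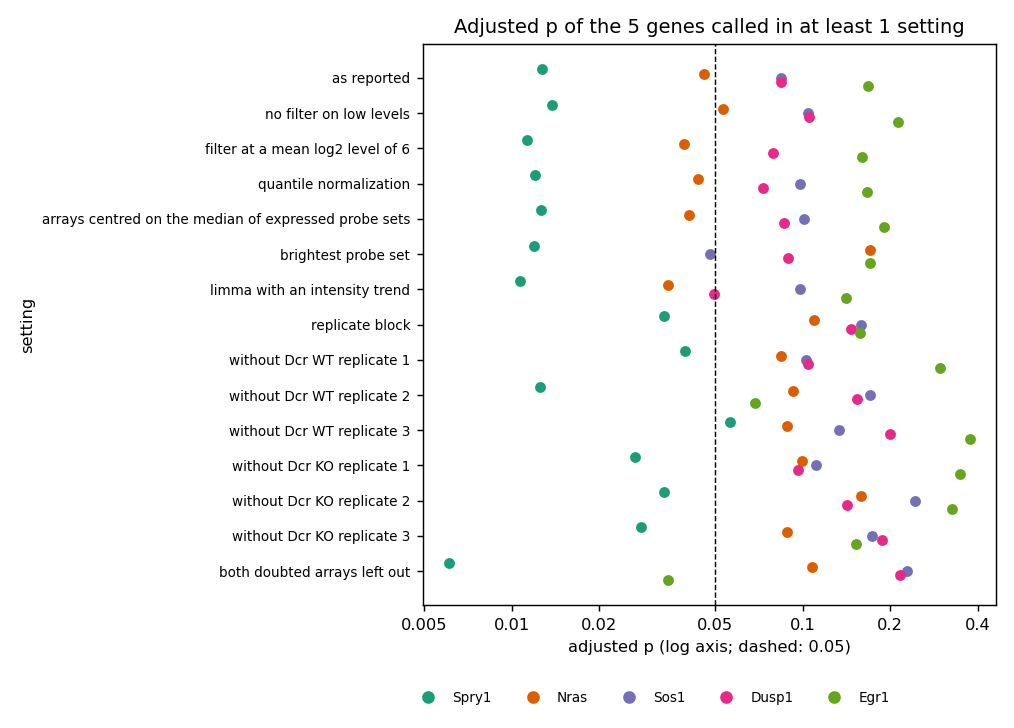
Adjusted p from limma (x axis, log scale, dashed line at 0.05) of the 5 FGF-ERK genes called in at least 1 setting, for each setting of the fit (y axis). Spry1 lies left of the line except without Dcr WT replicate 3 (0.0562), and Nras lies right of it in every fit that leaves out an array.

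Other genes of the pathway, 123 from wider lists of ligands, coreceptors, RAS regulators, kinases, inhibitors and target factors, were counted in the same fit. A value was found for 115 and 74 were tested, of which 10 were called (13.5%, against 13.3% of all genes), 7 higher and 3 lower, with a median difference of 0.08. Called higher were the heparan sulfate proteoglycan Sdc2 and the FGF receptor partner Flrt3, the RAS GTPase activating proteins Rasa2 and Rasal2, the RAS relative Mras, the ERK-activated kinase Rps6ka3 (RSK2) and the EGF receptor inhibitor Errfi1. Called lower were the RAS relative Rras, the RAF inhibitor Pebp1 and the phosphatase Dusp22. Sdc2 is on the study's candidate list, as are 16 of the 123 genes.

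Mras and Rps6ka3 stood out among these. Mras read 3.93, 4.24 and 4.16 on the Dcr WT arrays and 5.39, 5.84 and 5.80 on the Dcr KO arrays, a difference of 1.57 (SE 0.15). Rps6ka3 read 6.01, 5.99 and 5.90 on the Dcr WT arrays and 6.75, 6.81 and 6.83 on the Dcr KO arrays, a difference of 0.83 (SE 0.09). Both separated the groups widely and were called in all 6 fits that left out 1 array (limma adjusted p = 0.00334 to 0.0145 for Mras and 0.00968 to 0.0236 for Rps6ka3). Rasa2, a RAS GTPase activating protein like Rasa1, read 7.92, 7.95 and 7.86 on the Dcr WT arrays and 8.42, 8.45 and 8.43 on the Dcr KO arrays, a difference of 0.52 (SE 0.09), and was called in 5 of those 6 fits. Of the other genes, Pebp1 was called in 4 of the 6 fits, Rras in 3, Errfi1 in 2, Flrt3 in 1, and Sdc2, Rasal2 and Dusp22 in 0, with limma adjusted p-values up to 0.143. These 7 genes also lost the call with the replicate number as a block.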

How the data were processed

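Affymetrix expression was measured in 6 samples of total RNA, which the methods call biological triplicates. The values deposited by the authors are log2 expression levels for each probe set on each array, made with GCRMA 2.20.0 in R 2.11.1 according to the submitters' processing notes. The sources used here do not give whether other arrays were normalized together with these, and such a step could move the values. Of 45037 probe sets, 34945 carried 1 symbol, 932 several and 9160 none, and 0 columns were left unused.

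A gene's value is the mean log2 value of its probe sets, with those under the minimum level included. A gene's level can so lie below that of its expressed probe sets, as for Fgf4 and Spry2. The groups were compared with limma 3.58.1 in R 4.3.3 (lmFit, then eBayes) over genes whose mean reached 4, or 16 in linear units, with Benjamini-Hochberg adjustment over all 8782 and calls at 0.05. The number of arrays, 3 a group, limits the precision, and the smallest two-sided p that permuting 1 gene's arrays allows is 0.1. All FGF-ERK genes are accounted for. Values on every array are given for called genes, genes on the study's candidate list and the largest difference in each role, and for further genes chosen after their values were seen. The genes and lists were chosen with earlier results of these data known. Same-numbered arrays were checked for shared deviations. Alternatives were the filter, array scaling, the brightest probe set, an intensity trend, the replicate block and leaving out arrays. The fit was also run on simulated normal values without arrays that stood apart from their group, and no result here rests on that run. Tables used Python 3.11.15, pandas 2.3.3 and numpy 2.4.6, and figures matplotlib 3.10.9. Symbols of 34 genes matched RefSeq by Entrez ID. Protein sequences were not used here.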

Additional observations from a re-analysis of the deposited data

How the results depend on the processing

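Called FGF-ERK genes numbered 1 (lower) without a filter on low levels and with the replicate block, 1 higher and 1 lower with the brightest probe set and without both doubted arrays (Dcr WT replicate 2 and Dcr KO replicate 3, a setting chosen after seeing the data), and 1 higher beside 2 lower with an intensity trend. Leaving out each array in turn gave 0 to 1 called (0 higher, 0 to 1 lower). For the wider pathway genes these fits gave 2 to 7 called (2 to 5 higher, 0 to 2 lower), and for all genes 357 to 783 (220 to 465 higher, 137 to 376 lower), lowest without Dcr KO replicate 2. Wider pathway genes called were 19 with the brightest probe set (13 higher, 6 lower), 4 higher with the filter at 6, 5 lower without a filter, and 1 lower without both doubted arrays. All genes called higher were 404 with the filter at 6, where 5771 genes were tested, and 326 were called lower without both doubted arrays.

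With the replicate block, 597 of all genes were called (354 higher, 243 lower), and of the wider genes 3 (3 higher, 0 lower). Deviations of same-numbered arrays from their group means correlated at -0.217, -0.022 and 0.029, and those of different-numbered arrays at -0.227 to 0.314. With 3 arrays a group, these values cannot tell whether same-numbered arrays were paired or shared a batch. Spry1 stayed called under the block (limma adjusted p = 0.0334).

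Of the single-gene differences over these settings, 383 kept their direction and side of the threshold, and 11 lost and 3 gained the call. The remaining 14 were labelled reversed, each uncalled in both fits. They count Spry2 without both doubted arrays, whose difference was 0 and so not a reversal. Leaving out 1 array, differences ranged from -0.0422 (Dcr WT replicate 2 out) to 0.2244 for Fgfr2, -0.2615 to 0.1052 (Dcr WT replicate 1 out) for Braf, -0.0692 to 0.0058 for Spry2, reversed also without Dcr WT replicate 3 (0.0033), -0.0017 (Dcr WT replicate 3 out) to 0.1513 for Spred2, and, lowest without Dcr KO replicate 3, -0.0429 to 0.2071 for Spry4 and -0.0117 to 0.3633 for Dusp6. The brightest probe set reversed Grb2 (0.29) and Etv4 (-0.22). Without both doubted arrays Grb2 gave 0.0025, Spry2 0, Spry4 -0.0537, Dusp6 -0.04 and Etv5 -0.005. The cause was not tested, beyond what fewer arrays or other probe sets change by construction. Genes of low signal are limited by background.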
